A study of Mus musculus with 6 samples.

Results

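The genes described here are 9 core transcription factors of skeletal muscle, taken by symbol from a count table of 24028 genes: Myod1, Myf5, Myog and Myf6 (the myogenic basic helix-loop-helix, or bHLH, factors), Mef2a, Mef2c and Mef2d, the homeobox gene Six4 and the paired-box gene Pax7. They were measured by sequencing of polyadenylated RNA in 1 clonal line of C2C12, an immortalised mouse myoblast line. The line carries MMH, a codon-altered transgene under doxycycline control: its first portion is mouse Dux up to and including the homeodomains, and the rest is human DUX4 downstream of its own homeodomains. Separate cultures of this line gave 3 induced libraries, from cells given 2 µg/ml doxycycline, and 3 uninduced libraries, from cells not given the drug. Both groups carried the transgene and grew in puromycin. Induction lasted 18 h by the series design text but 36 h by the protocol of the samples, and which holds is not known. Doxycycline-treated cells that lack MMH were not analysed here, so the drug and the transgene cannot be told apart.

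Myogenic bHLH factors bind a short DNA element called the E-box as dimers with ubiquitous E proteins, and they switch on muscle genes. Myf5 and Myod1 set the myoblast identity, Myog drives the later step of terminal differentiation, and Myf6, also called MRF4, acts mostly in differentiated fibres. Mef2 proteins are MADS-box factors that work with the bHLH factors on muscle promoters. Six4 and its relatives bind the MEF3 element in promoters such as that of Myog, and Pax7 marks satellite cells, the stem cells of adult muscle. C2C12 myoblasts express Myod1 while they still divide.

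The libraries held 21.5 to 24.5 M counts in induced cells and 21.9 to 24.0 M in uninduced cells. Counts were scaled with TMM factors, which averaged 0.716 in induced and 1.40 in uninduced libraries, and are given as CPM, counts relative to the scaled library size. The 20 genes most abundant in induced cells took 42.5% to 43.1% of the counts of induced libraries and 2.95% to 2.98% of those of uninduced libraries. TMM sets the median log2 fold change of the tested genes near 0, and scaling by library size alone would move that median by -0.96. The calls over all genes were 5347 lower and 5351 higher with TMM, 6191 lower and 4593 higher with upper-quartile scaling, and 9949 lower and 1977 higher with library size. The Dux row held 252, 216 and 220 counts in induced libraries, against 1, 3 and 0 in uninduced libraries. The transgene's codons were altered, so that row need not read the transgene. All 7 listed myoblast markers, Myod1 and Myf5 among them, were detected and lower in induced cells, beside 41.2% lower over all tested genes. Their summed level was 952 to 989 CPM in induced libraries, against 1860 CPM in each uninduced library. Most of that sum came from Des, at 689 ± 11.5 CPM in induced and 1042 ± 8.49 CPM in uninduced cells (SD, n = 3 each). Des, Cdh15 and Itga7 are counted again among the known targets below, and Vcam1 and Ncam1 among the satellite cell and myoblast markers.

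The upstream sequence of Myog is shown because its proximal promoter is a textbook meeting point of bHLH and Mef2 factors with those that bind MEF3, and because Myog and Six4 moved in opposite directions. It covers the 250 bases before the annotated start, chr1:134289754-134290003 of GRCm38.p6, plus strand, from RefSeq. Capitals mark 2 E-boxes (CANNTG) and 1 MEF3 element (TCAGGTT), searched on both strands.
Myog: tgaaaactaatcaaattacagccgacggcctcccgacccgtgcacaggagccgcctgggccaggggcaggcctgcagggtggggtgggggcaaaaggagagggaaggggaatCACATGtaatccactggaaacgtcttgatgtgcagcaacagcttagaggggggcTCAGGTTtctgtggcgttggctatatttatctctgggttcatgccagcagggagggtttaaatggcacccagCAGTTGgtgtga
The E-boxes lay 138 to 133 and 12 to 7 bases before the start, and the MEF3 element 84 to 78 bases before it. RefSeq windows of 250 bases before a listed start were found for 7 of the 9 genes, 10 windows in all, since Mef2c had 3 and Six4 had 2 that overlap. Only the Myog window lies wholly outside the gene span given below. The others lie wholly or partly inside those spans, so they need not be upstream of the gene's outermost start. Myod1 and Myf6 were without a window. An E-box was present in 3 of the 10 windows and in 66.2% of the 32851 windows of all genes. A MEF3 match was present in 3 of the 10, against 3.49% of all windows, and its sites are shown to compare their orientation.
Myog: tagaggggggcTCAGGTTtctgtggcgtt
Mef2c: atAACCTGAaatgaagcaag
Six4: ggcctgggggaAACCTGAtcggccagatc
Capitals mark the MEF3 match, and each line runs 5′ to 3′ on the gene's own strand. The Myog stretch is chr1:134289909-134289937 on the plus strand and holds the element in the forward direction. The Mef2c stretch, chr13:83503784-83503803 on the plus strand, and the Six4 stretch, chr12:73113325-73113353 on the minus strand, hold it in reverse. The Six4 stretch lies inside the Six4 span given below. The E-box variant CAGCTG, a subset of the E-box above, was in none of the 10 windows and in 13.0% of all windows. An exact match to the standard MEF2 consensus, searched by name, was in none of the 10 and in 2.92% of all. Near matches were not counted or marked, such as ctatatttat in the Myog window, which departs from the consensus at its last base. The lack of an exact match is thus not the lack of a MEF2 site. These are letter matches within 250 bases and not measured binding sites.

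The bHLH factors with enough counts were lower in induced cells, Six4 was higher, and the Mef2 genes split with TMM scaling but were all lower with library size. Of the 9 genes, 7 passed the low-count filter. All 7 passed a Benjamini-Hochberg adjusted p of 0.05 in edgeR's quasi-likelihood test, against 82.5% of the 12969 genes tested. In induced cells 4 were lower, against 41.2% of all genes tested, and 3 were higher, against 41.3%. With so few genes, counts like these cannot be told from the background. The median log2 fold change of the 7 was -0.50, and that of all tested genes was -0.01. With scaling by library size 6 were lower and 1, Six4, was higher. The groups did not overlap for any of the 7, as was so for 83.1% of all tested genes. In bulk RNA, fewer cells expressing a gene and less RNA per cell cannot be told apart.

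**Figure D1:**
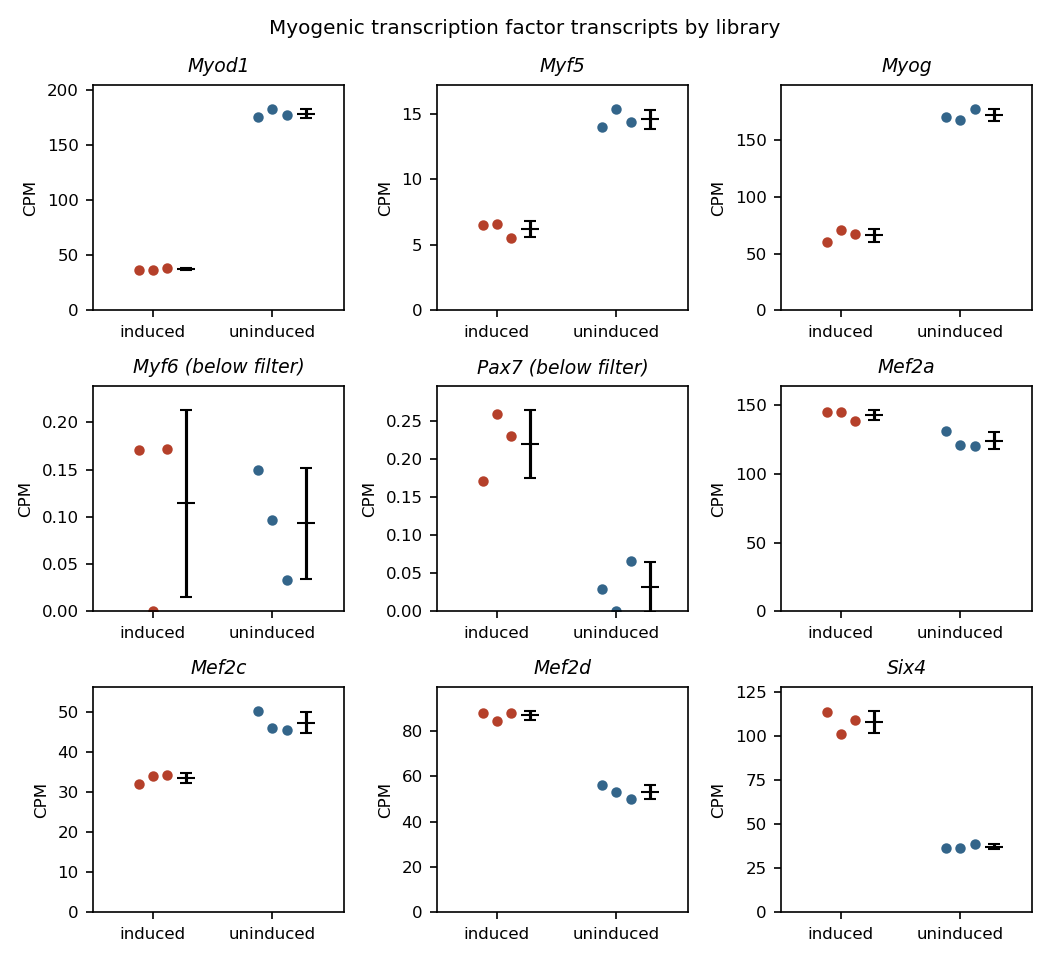
CPM on TMM-scaled library sizes (y axis, linear, a separate scale in each panel) of the 9 genes in the 3 induced (left, red) and 3 uninduced (right, blue) libraries. Points are libraries and the black mark with its bar is the mean ± SD. Myod1, Myf5, Myog and Mef2c sit lower in induced cells, Six4 higher, and Mef2a and Mef2d higher on this scaling but lower with library size. Myf6 and Pax7 stay below 0.26 CPM.

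Myod1, the determination factor that can turn other cells into muscle, showed the largest decrease among the 7 tested genes. It lies on chromosome 7 at 46376474 to 46379092 of GRCm38. Its level was 36.9, 36.4 and 38.1 CPM in induced libraries, against 175, 183 and 177 CPM in uninduced libraries. The induced values lay close together and far below every uninduced value. That is a log2 fold change (± SE) of -2.26 ± 0.05 (edgeR adjusted p = 1.2e-22), a 4.80-fold decrease, and 1.36% of all tested genes had a lower log2 fold change.

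Myf5, the earliest bHLH factor of the lineage, lies on chromosome 10 at 107482908 to 107486927. It was less abundant, with 6.50, 6.60 and 5.51 CPM in induced libraries and 14.0, 15.4 and 14.3 CPM in uninduced libraries. Its counts were 96 to 114 in induced and 437 to 475 in uninduced libraries, so it was the least deeply counted of the 7 tested genes. The log2 fold change (± SE) was -1.23 ± 0.10 (edgeR adjusted p = 5.8e-11), a 2.35-fold decrease, and 8.58% of all tested genes had a lower one.

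Myf6 lies 5.92 kb from Myf5, in the same cluster at 107492848 to 107494723, and was at the limit of detection. It had 3, 0 and 3 counts in induced libraries, against 5, 3 and 1 in uninduced libraries. The groups overlapped, with 6 counts over the induced and 9 over the uninduced libraries. With TMM scaling the ratio of induced to uninduced levels was 1.25, with an exact 95% binomial counting interval from 0.367 to 3.94, so no difference was detectable at this depth. Lin7a, the nearest protein-coding gene on the other side of Myf5 at 57.8 kb, rose in induced cells by 1.57 ± 0.11 on the log2 scale (edgeR adjusted p = 2.1e-12), in the opposite direction to Myf5.

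Myog, the bHLH factor of terminal differentiation, lies on chromosome 1 at 134290004 to 134292548. It had 60.3, 70.9 and 66.9 CPM in induced libraries, against 171, 168 and 178 CPM in uninduced libraries. Every induced value lay below every uninduced one. The log2 fold change (± SE) was -1.38 ± 0.05 (edgeR adjusted p = 1.3e-17), a 2.61-fold decrease. Of all tested genes 6.62% had a lower log2 fold change, and 12.7% were called lower by more than 2-fold. Counts summed over the 4 bHLH genes came to 109 ± 5.11 CPM in induced cells and 365 ± 4.92 CPM in uninduced cells (SD, n = 3 each), a log2 fold change (± SE) of -1.74 ± 0.04 (edgeR adjusted p = 4.4e-21).

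The balance among the bHLH genes can be read from ratios within a library. The ratio of Myod1 to Myog counts in a library does not depend on how libraries are scaled. It was 0.612, 0.513 and 0.570 in induced libraries, against 1.03, 1.09 and 0.996 in uninduced libraries, a log2 difference of -0.88 (exact two-sided permutation p = 0.1, adjusted p = 0.112 over 9 ratios). With 3 libraries a group 0.1 is the smallest p that this test can give. The ratio of Myod1 to Myf5 was 5.68, 5.51 and 6.92 in induced libraries and 12.5, 11.9 and 12.4 in uninduced libraries, a log2 difference of -1.03 with the same p values. For Myog to Myf5 the ratios were 9.28, 10.7 and 12.2 in induced and 12.2, 10.9 and 12.4 in uninduced libraries, and these overlapped (exact permutation p = 0.2, adjusted p = 0.2). Both ratios with Myod1 on top were lower in all 3 induced libraries than in any uninduced library. How often ratios of other gene pairs separate in this way was not computed.

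With TMM scaling Mef2a and Mef2d were higher and Mef2c lower, whereas all 3 were lower with library size. Mef2a, a widely expressed member, lies on chromosome 7 at 67231163 to 67376456. It had 145, 145 and 138 CPM in induced libraries and 131, 121 and 120 CPM in uninduced libraries. The groups were close but did not overlap. The log2 fold change (± SE) was 0.20 ± 0.04 (edgeR adjusted p = 0.000227), but it was 0.06 with upper-quartile scaling (edgeR adjusted p = 0.218) and -0.76 with scaling by library size.

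Mef2c, the member most tied to muscle and heart differentiation, lies on chromosome 13 at 83504017 to 83667079. It had 32.1, 34.04 and 34.3 CPM in induced libraries and 50.3, 46.0 and 45.6 CPM in uninduced libraries. All induced values were below all uninduced values, with a log2 fold change (± SE) of -0.50 ± 0.06 (edgeR adjusted p = 3.7e-08), a 1.41-fold decrease. Its neighbours lie far away, Cetn3 at 1710 kb and Tmem161b at 555 kb.

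Mef2d, a member with roles in both proliferating and differentiating myoblasts, lies on chromosome 3 at 88141941 to 88172091. It had 88.1, 84.5 and 88.2 CPM in induced libraries, against 56.3, 53.1 and 49.9 CPM in uninduced libraries. The groups were well apart, with a log2 fold change (± SE) of 0.71 ± 0.05 (edgeR adjusted p = 4.9e-12), or a 1.64-fold increase, which became -0.25 with scaling by library size (edgeR adjusted p = 5.8e-05).

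Ratios within the Mef2 family do not depend on the scaling. The ratio of Mef2c to Mef2d counts was 0.364, 0.403 and 0.389 in induced libraries, against 0.894, 0.865 and 0.913 in uninduced libraries, a log2 difference of -1.21 (exact permutation p = 0.1, adjusted p = 0.112). The ratio of Mef2c to Mef2a was 0.221 to 0.248 in induced and 0.380 to 0.384 in uninduced libraries, and that of Mef2d to Mef2a was 0.584 to 0.637 in induced and 0.416 to 0.441 in uninduced libraries (exact permutation p = 0.1 and adjusted p = 0.112 for each). None of these ratios overlapped between the groups. The share of other gene pairs that do so was not computed, and 83.1% of single tested genes did not overlap. The summed Mef2 counts were 263 ± 2.14 CPM in induced cells and 224 ± 11.7 CPM in uninduced cells (SD, n = 3 each). That sum had a log2 fold change (± SE) of 0.23 ± 0.04 (edgeR adjusted p = 3e-05), which became 0.085 with upper-quartile scaling (edgeR adjusted p = 0.0656) and -0.73 with scaling by library size.

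**Figure D2:**
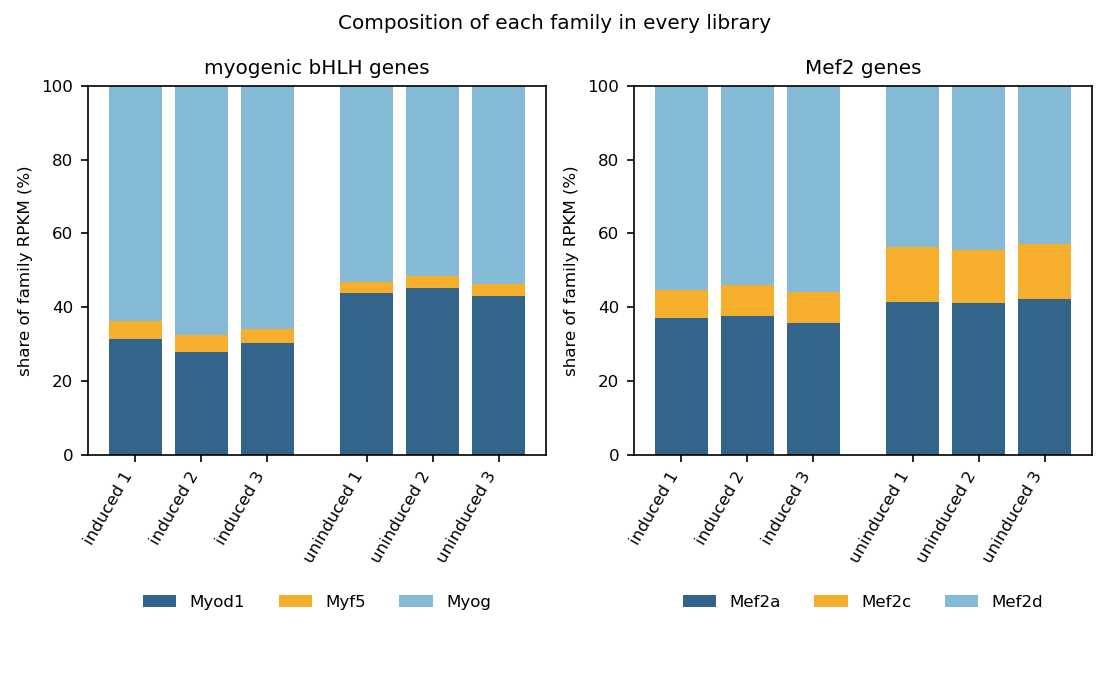
Share of each family's summed RPKM (CPM per kilobase of exon, y axis, percent) taken by each gene in the 3 induced (left) and 3 uninduced (right) libraries. Myog took 65.8% ± 1.94 of the bHLH total in induced and 52.8% ± 1.17 in uninduced cells, and Mef2c 8.08% ± 0.359 of the Mef2 total in induced and 14.8% ± 0.168 in uninduced cells (SD, n = 3 each). Lengths are the union of a gene's exons, and the Mef2 shares depend on that choice. With the longest annotated transcript Mef2a, at 25.8 RPKM, stood above Mef2d, at 16.1 RPKM, in induced cells.

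Six4, a homeobox factor that acts with Eya cofactors upstream of the bHLH genes, was the member with the largest increase. It lies on chromosome 12 at 73099609 to 73114031. It had 114, 101 and 109 CPM in induced libraries, against 36.7, 36.3 and 39.1 CPM in uninduced libraries. Each induced value was above 100 CPM and each uninduced value below 40 CPM. The log2 fold change (± SE) was 1.53 ± 0.05 (edgeR adjusted p = 2.2e-18), a 2.90-fold increase. It remained positive, at 0.57, with scaling by library size (edgeR adjusted p = 2.3e-10). Of all tested genes 88.5% had a lower log2 fold change than Six4 with TMM, and 18% were called higher by more than 2-fold. Trmt5, a neighbouring gene at 154 kb, had a log2 fold change (± SE) of 1.96 ± 0.07 (edgeR adjusted p = 4.1e-18).

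Pax7, the satellite cell factor, lies on chromosome 4 at 139737059 to 139833530 and was nearly absent from both groups. It had 3, 4 and 4 counts in induced libraries and 1, 0 and 2 in uninduced libraries, which is at most 0.259 CPM. The counts did not overlap between the groups. With TMM scaling the ratio of induced to uninduced levels was 6.90, with an exact 95% counting interval from 1.82 to 38.5. That interval does not cover the choice of scaling. Ratio and interval would both be lower with library size, for which they were not computed. The fit without a low-count filter, also with TMM, called Pax7 higher, with an edgeR adjusted p of 0.0161 over 18589 genes. Its level stays close to the 3-count floor of a library, 0.171 to 0.194 CPM in induced and 0.0898 to 0.0983 CPM in uninduced libraries.

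**Figure D3:**
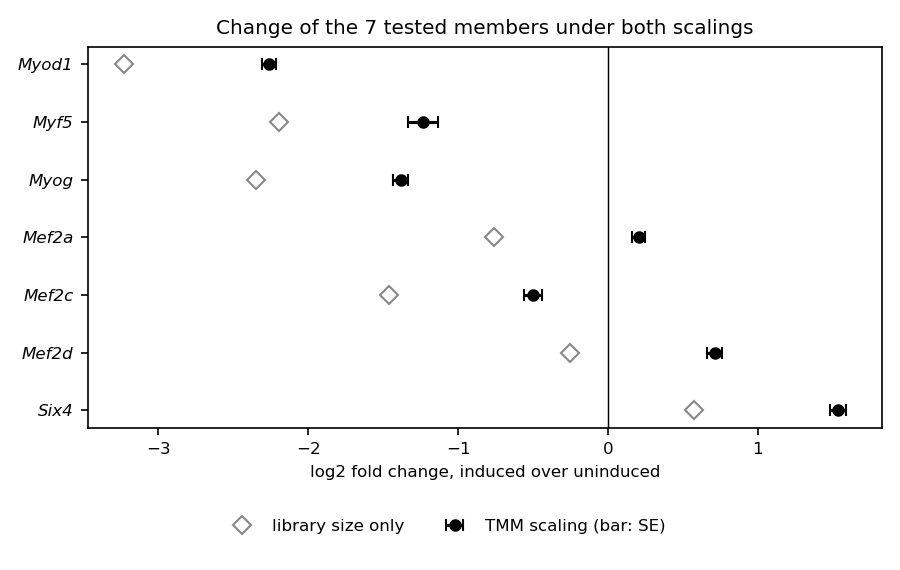
Log2 fold change of induced over uninduced cells (x axis) for the 7 tested genes, with TMM scaling (filled circles, bars are the SE) and with scaling by library size (open diamonds). Myod1, Myf5, Myog and Mef2c lie below 0 under both scalings and Six4 above 0 under both, while Mef2a and Mef2d lie above 0 with TMM and below 0 with library size.

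To set the genes beside one another, levels were divided by exon length (RPKM, with the union of a gene's exons in GENCODE vM21). In induced cells Myog stood highest at 44.2 ± 3.57 RPKM, then Myod1 at 19.95 ± 0.482, Mef2d at 14.5 ± 0.349, Six4 at 9.97 ± 0.579 and Mef2a at 9.72 ± 0.256 RPKM (SD, n = 3). The libraries of Six4 and Mef2a overlapped, and Myf5 at 2.98 ± 0.289 and Mef2c at 2.13 ± 0.0775 RPKM came next. In uninduced cells Myog at 115 ± 3.42 RPKM and Myod1 at 95.8 ± 2.19 RPKM stood far above the rest (SD, n = 3). They were followed by Mef2d at 8.88 ± 0.533 and Mef2a at 8.44 ± 0.420 RPKM, whose libraries overlapped, and then by Myf5 at 6.99 ± 0.347, Six4 at 3.44 ± 0.137 and Mef2c at 3.01 ± 0.167 RPKM. Six4 thus stood above Myf5 in induced cells and below it in uninduced cells. Myf6 and Pax7 were last in both groups, at most 0.0906 RPKM on average. Myod1 ranked above 88.1% of the 17974 genes with counts in induced cells and above 98.3% of them in uninduced cells. The order depends on the length used: with the longest annotated transcript of each gene, Mef2a came to 25.8 RPKM in induced cells, above Myod1, and to 22.4 RPKM in uninduced cells, where it stayed below Myod1.

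The nearest protein-coding genes did not follow one direction. Beside Myog, Ppfia4 at 4.23 kb had 4.29 ± 0.597 CPM in induced and 8.88 ± 0.464 CPM in uninduced cells (SD, n = 3 each), and its log2 fold change was -1.06 ± 0.12 (SE, edgeR adjusted p = 3.1e-08). Beside Myod1, Otog at 65.0 kb was at -1.07 ± 0.20 (SE, edgeR adjusted p = 2.9e-05), and Kcnc1 had too few counts to be tested. Beside Mef2c, Cetn3 was at -1.03 and Tmem161b at 1.04 on the log2 scale. Iqgap3, 20.9 kb from Mef2d, was at -0.21 ± 0.06 (SE).

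Some counts could be shared with opposite-strand genes, because the kit does not mark strand. In GENCODE vM21 Lysmd4 overlaps 302 exon bases of Mef2a, but by RefSeq positions it lies 2.69 kb from that gene. Lysmd4 had 10.3 ± 0.967 CPM in induced and 6.15 ± 0.601 CPM in uninduced cells (SD, n = 3 each). The antisense gene 1700113A16Rik overlaps 531 exon bases of Mef2d in GENCODE and had 4.12 ± 0.578 CPM in induced and 4.66 ± 0.860 CPM in uninduced cells (SD, n = 3 each). Both are small beside the Mef2 gene they overlap.

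All 3 E protein genes, which encode the dimerisation partners of the bHLH factors, were tested. With TMM Tcf3 was higher, Tcf12 lower and Tcf4, at 0.09, not called, beside 41.2% lower and 41.3% higher over all tested genes, whereas all 3 were lower with library size. The median with TMM was 0.09. Tcf3 had 142 ± 5.97 CPM in induced and 122 ± 4.64 CPM in uninduced cells (SD, n = 3 each), a log2 fold change of 0.22 ± 0.04 (SE) that became 0.07 with upper-quartile scaling (edgeR adjusted p = 0.127) and -0.75 with scaling by library size. Tcf12 had 131 ± 5.05 CPM in induced and 151 ± 10.4 CPM in uninduced cells (SD, n = 3 each), a log2 fold change of -0.21 ± 0.05 (SE) that became -1.17 with scaling by library size. The ratio of Myod1 to Tcf12 counts was 0.267 to 0.302 in induced and 1.07 to 1.25 in uninduced libraries (exact permutation p = 0.1, adjusted p = 0.112). These ranges were far apart.

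Genes that restrain the bHLH factors went both ways with TMM scaling. Of 18 listed genes 16 were tested, with 9 lower, 6 higher and 1 not called in induced cells, beside 41.2% lower and 41.3% higher over all tested genes, and a median of -0.42. With library size 14 were lower and 2 higher. The largest falls were in Bhlhe41 (also called Sharp1), Heyl and Hes1, repressors of the bHLH class. Bhlhe41 had 1.84 ± 0.354 CPM in induced and 14.8 ± 0.640 CPM in uninduced cells (SD, n = 3 each), a log2 fold change of -3.02 ± 0.13 (SE). Heyl fell by 2.10 ± 0.12 and Hes1 by 1.52 ± 0.08 on the log2 scale. The largest rises were in Id4, Hey1 and the zinc-finger repressor gene Snai1. Id4, whose family sequesters E proteins, had 2.72 ± 0.448 CPM in induced and 0.374 ± 0.175 CPM in uninduced cells (SD, n = 3 each), and Hey1 rose by 1.75 ± 0.07 on the log2 scale. Snai1 was at 0.79 ± 0.07 but at -0.18 with scaling by library size. The abundant members Id1, Id2 and Id3, named after their values were seen, were lower, at -0.31, -0.67 and -0.81 on the log2 scale. The ratio of Id3 to Myod1 counts was 4.55 to 4.69 in induced and 1.67 to 1.72 in uninduced libraries (exact permutation p = 0.1, adjusted p = 0.112).

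Of 23 regulators and cofactors of Mef2, 22 were tested. With TMM 9 were lower, 7 higher and 6 not called, with a median of -0.09, which is no more than the 41.2% lower and 41.3% higher of all tested genes. The acetyltransferase genes were those with the largest increases. Kat2b, which encodes PCAF, had 134 ± 5.51 CPM in induced and 21.5 ± 0.675 CPM in uninduced cells (SD, n = 3 each), a log2 fold change of 2.63 ± 0.05 (SE). Crebbp rose by 2.13 ± 0.07 and Ep300 by 1.10 ± 0.06 on the log2 scale, and these 3 stayed above 0 with scaling by library size, Ep300 at 0.14. Among genes averaging 1 CPM or more, the falls were led by Mkl1, a coactivator of SRF, at -1.51 ± 0.05, the class IIa histone deacetylase gene Hdac7 at -1.46 ± 0.06 and the kinase gene Camk2g at -1.21 ± 0.05. With upper-quartile scaling 14 of the list were lower and 6 higher, and with library size 18 were lower and 3 higher.

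In a mixed list of Six4 partners and other regulators, 16 of 26 genes were tested, and their median was -0.28. With TMM 8 were lower, 4 higher and 4 not called, beside 41.2% lower and 41.3% higher over all tested genes. The list also held genes that are not Six4 partners, among them Mef2b, Rb1, Hes6, Dll1, Notch1 and Notch3. With library size 15 were lower and 1 higher. The gene of the Six4 cofactor Eya4 had 25.2 ± 1.08 CPM in induced and 55.9 ± 3.96 CPM in uninduced cells (SD, n = 3 each). Its log2 fold change was -1.15 ± 0.06 (SE). Six5 was 2.82-fold lower, and the receptor gene Notch3 fell by 1.21 ± 0.06 on the log2 scale. The homeobox gene Msx1, which holds back muscle differentiation, had 9.86 ± 1.37 CPM in induced and 2.64 ± 0.167 CPM in uninduced cells (SD, n = 3 each), a log2 fold change of 1.90 ± 0.13 (SE). Notch1 was at 0.72 ± 0.07 and Meis1 at 0.45 ± 0.07, but these were at -0.25 and -0.52 with scaling by library size. Pax3, the relative of Pax7, and Mef2b were among the 10 genes with too few counts to be tested.

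Known targets of the bHLH and Mef2 factors were mostly lower, all but Cdh15 by less than Myod1. Of 38 such genes 36 were tested, with 25 lower, 3 higher and 8 not called, beside 41.2% lower and 41.3% higher over all tested genes. Their median was -0.51, beside -0.01 for all tested genes, and with library size 36 were lower and 0 higher. Cdh15, the M-cadherin gene, had 45.6 ± 4.13 CPM in induced and 221 ± 6.91 CPM in uninduced cells (SD, n = 3 each), a log2 fold change of -2.28 ± 0.05 (SE). The receptor gene Fgfr4 fell by 1.55 ± 0.12 on the log2 scale. Gm7325, the fusion gene now called Mymx, had a log2 fold change of -1.44 ± 0.14 (SE). The 3 called higher were Klhl41 at 0.47 ± 0.06, Musk at 0.46 ± 0.05 and the myosin light chain gene Myl1 at 0.19 ± 0.05. All 3 became negative with scaling by library size, at -0.50, -0.50 and -0.78, and Myl1 was not called with upper-quartile scaling (edgeR adjusted p = 0.41).

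Markers of satellite cells, in any state, and of myoblasts were lower in 8 of 10 tested cases and higher in 2. Over all tested genes 41.2% were lower and 41.3% higher. Their median was -0.93, and 12 were in the table. With library size 9 were lower and 0 higher. The chemokine receptor gene Cxcr4 had 7.76 ± 0.497 CPM in induced and 33.1 ± 0.874 CPM in uninduced cells (SD, n = 3 each), a log2 fold change of -2.09 ± 0.08 (SE). Cd34 fell by 1.85 ± 0.11 and Megf10 by 1.43 ± 0.04 on the log2 scale. The syndecan gene Sdc4 was at 0.92 ± 0.04 and Spry1 at 0.54 ± 0.14, but these were at -0.041 and -0.43 with scaling by library size.

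**Figure D4:**
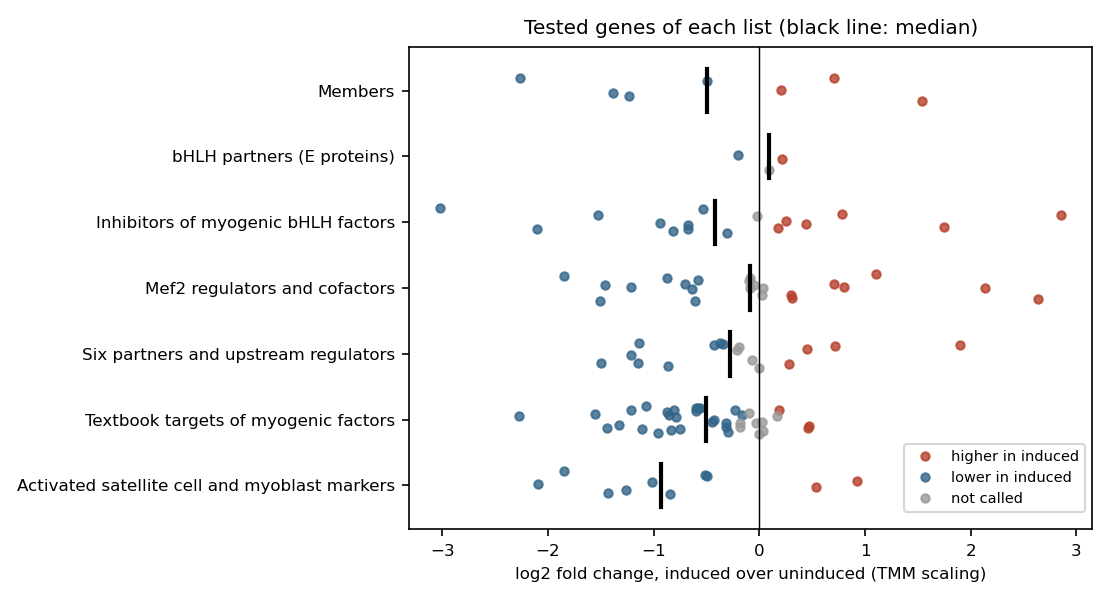
Log2 fold change of induced over uninduced cells (x axis, TMM scaling) for every tested gene of the 9 transcription factors and the 6 lists. Each point is a gene, red where called higher, blue where called lower and grey where not called (Members are the factors themselves). The black line is the list's median, which runs from 0.09 for the E proteins to -0.93 for the satellite cell and myoblast markers.

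Markers of other cell types stood as follows beside these changes, and their part in the results was not tested. The summed level of 5 adipocyte genes was 172 to 175 CPM in induced and 54.6 to 57.7 CPM in uninduced libraries, most of it from Cebpa. Fabp4 was called higher, with 7.06 ± 0.791 CPM in induced and 0.466 ± 0.103 CPM in uninduced cells (SD, n = 3 each), and Pparg lower, with 6.89 ± 0.357 CPM in induced and 8.74 ± 1.07 CPM in uninduced cells (SD, n = 3 each). The other members, Adipoq and Plin1, averaged 0.191 and 0.0381 CPM in induced cells and had 0 counts in uninduced cells. The summed level of 4 endothelial genes was 2.05 to 2.41 CPM in induced and 0.0647 to 0.459 CPM in uninduced libraries. For 5 osteoblast genes it was 35.3 to 37.3 CPM in induced and 51.3 to 54.1 CPM in uninduced libraries, for 4 fibroblast genes 85.1 to 90.7 CPM in induced and 119 to 141 CPM in uninduced libraries, and for 4 neuronal genes 109 to 116 CPM in induced and 76.1 to 82.7 CPM in uninduced libraries. In the fibroblast list Pdgfra was called higher, with 49.6 ± 0.743 CPM in induced and 13.1 ± 1.63 CPM in uninduced cells, and Col1a1 lower, with 37.4 ± 2.70 CPM in induced and 117 ± 10.4 CPM in uninduced cells (SD, n = 3 each). In the neuronal list Tubb3 was called higher, with means of 98.9 CPM in induced and 58.8 CPM in uninduced cells. Map2 was called lower, with means of 12.3 CPM in induced and 20.8 CPM in uninduced cells. Rbfox3 and Snap25 averaged 0.0596 and 0.0216 CPM in induced cells and had 0 counts in uninduced cells. Leukocyte, epithelial and Schwann cell genes summed to at most 1.61 CPM in any library, and Sox10 had no count at all.

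The genes whose pattern over the 6 libraries was most like that of a member were chosen by the smallest Euclidean distance between centred log2(CPM + 1) values, among 8585 genes with a mean of 10 CPM or more. For Myod1 these included Loxl3 and Mical2, at distances of 0.115 and 0.139. For Myf5 they were Abcb8, Dck and Plekho1, at 0.121, 0.124 and 0.125. For Six4 they were Ndrg1, Incenp and Hexim1, at 0.0840, 0.0862 and 0.0872. With 2 groups of 3 libraries, such likeness reflects mainly the size of the group difference, such as the -2.33 of Loxl3 beside the -2.26 of Myod1.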

How the data were processed

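Reads of 6 libraries, made with a TruSeq RNA v2 kit per the labels, were processed by the authors with CASAVA, TopHat2 2.0.12 and Bowtie2 2.2.3 on the mm10 build (tools and build as listed in the submitters' processing notes). Their deposited table held raw counts of reads per Entrez gene. The counter, its strand setting and its rule for reads that map to several places were not given in the sources used here. mm10 is the same assembly as GRCm38.

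Counts were analysed in R 4.3.3. Genes were filtered with filterByExpr at its defaults, scaled with TMM and tested with edgeR 4.0.16, a quasi-likelihood fit (glmQLFit, glmQLFTest, robust=TRUE; two-sided, no covariate). P-values were adjusted over the 12969 tested genes by Benjamini-Hochberg and called at 0.05. Each standard error is |log2 fold change| over the root of the F statistic. RPKM used GENCODE vM21 exon lengths, and promoter windows came from RefSeq. The biological coefficient of variation was 4.27%. Libraries came from separate cultures of 1 clone per the labels, and replicate pairs differed beyond counting noise (chi-square of 2.40 to 6.77 per degree of freedom). Counting intervals cover counting error only.

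Genes and lists were chosen with earlier results of these data known. All 9 factors are named. From each list up to 3 rises and 3 falls are named, the largest among genes that passed the threshold, did not overlap between groups and averaged 1 CPM or more. Some results that these rules select are not reported here. The alternatives were DESeq2 1.42.0, limma-voom (limma 3.58.1), scaling by RLE, upper quartile or library size, looser and stricter filters, robust=FALSE, each library left out, a block for replicate number, the 20 most abundant induced genes removed, an adjusted p of 0.01 and a glmTreat test against 1.5-fold.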

Additional observations from a re-analysis of the deposited data

How the results depend on the processing

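The 9 factors gave 4 lower and 3 higher calls under most alternatives. Exceptions were upper-quartile scaling (4 lower, 2 higher, Mef2a at 0.06 not called), library-size scaling (6 lower, 1 higher), no low-count filter (4 lower, 4 higher, with Pax7 called) and glmTreat against 1.5-fold (3 lower, 2 higher). Leaving out a library gave 4 lower and 3 higher each time, -1.76 to -1.70 for the summed bHLH genes and 0.20 to 0.27 for the summed Mef2 genes on the log2 scale. The median of all tested genes moved by -0.96 with library size, by -0.14 with upper-quartile scaling and by 0.105 with no low-count filter. The summed Mef2 genes were at 0.085 with upper-quartile scaling (edgeR adjusted p = 0.0656) and -0.73 with library size only, Mef2a at -0.76, Mef2d at -0.25, Tcf3 at -0.75, Snai1 at -0.18, Meis1 at -0.52, Notch1 at -0.25, Myl1 at -0.78, Klhl41 at -0.50, Musk at -0.50, Sdc4 at -0.041 and Spry1 at -0.43. With library size only, 3 E protein genes were lower and 0 higher, and 14 bHLH inhibitors lower and 2 higher. On that scaling 18 Mef2 regulators were lower and 3 higher, and 15 genes of the Six4 list lower and 1 higher. The targets had 36 lower and 0 higher there, and the satellite cell and myoblast markers 9 lower and 0 higher. E protein genes called higher numbered 2 with RLE scaling, with a filter of 1 CPM in 3 libraries, with the replicate block and without uninduced replicate 1 (1 to 2 over the libraries left out), and 0 with upper-quartile scaling, where 14 Mef2 regulators were lower. Without the low-count filter 7 genes of the Six4 list were higher. Tcf3 (0.07) and Myl1 (0.04) were not called with upper-quartile scaling. The cause of these changes was not tested. In all, 850 of 884 values under alternatives kept their direction and side of the threshold, or lay within 1.5 times the count.

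Libraries with the same replicate number shared only a number: their deviations from the group means correlated at 0.0879, -0.00157 and 0.0820. The replicate block left 4 factors lower and 3 higher and the summed bHLH genes at -1.74. At this depth Myf6 and Pax7 could not be compared closely.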
